A study of Mus musculus with 20 samples.

Results

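Nearly all of the genes described here encode nuclear-encoded protein subunits of the mitochondrial respiratory chain and of ATP synthase, measured in crypts of the mouse small intestine. They were chosen by symbol, as every gene whose name begins with Nduf followed by a, b, c, s or v and a digit, Uqcr or Atp5, the 4 Sdh genes, and the Cox genes of subunits 4 to 8. Earlier results of these data were known when the choice was made. Of 23020 genes in the table, 85 matched, and 6 with symbols ending in -ps, the mark of a pseudogene, were dropped, which left 79 members. By complex these are 35 genes of complex I, 4 of complex II, 7 of complex III, 16 of complex IV and 17 of complex V. Atp5s and Atp5sl, which encode accessory proteins and not subunits, are counted with complex V throughout.

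RNA of C57BL/6 mice was sequenced from the 3' ends of polyadenylated transcripts, with molecular identifiers, in 20 libraries, each taken here as 1 mouse. The groups were 5 co-housed Xiap-/- mice, 4 Xiap-/- mice housed apart, 5 co-housed wild-type mice and 6 wild-type mice housed apart. By their genotype label, Xiap-/- mice lack Xiap, a gene whose protein blocks caspases, and no tissue-restricted deletion is named. Co-housed mice of both genotypes had shared cages for 4 weeks, and the other mice had lived with their own genotype. Cage, age, sex and the deleted part of Xiap are not given in the sources used here.

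The respiratory chain passes electrons from NADH (complex I) or succinate (complex II) through complex III to oxygen at complex IV, and ATP synthase (complex V) uses the proton gradient that complexes I, III and IV build. Complex II is encoded wholly in the nucleus, while the other complexes combine nuclear subunits with a few encoded in mitochondrial DNA. In the mouse crypt, stem cells are known to rely on mitochondrial respiration more than the neighbouring Paneth cells do.

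Values are the authors' normalized levels on a log2 scale. The transformation behind them is not given in the sources used here, so a difference of 1 need not be a doubling. This holds most for low genes, such as Ndufs3, which lay between -3.37 and -3.31 in all 20 libraries. Because reads come from transcript ends, the values are not scaled by length, and levels of different genes are compared on this scale of transcript ends. The depth of the libraries is unknown. A proxy for it, the share of rare genes that stand above their own plateau, averaged 8.77% ± 2.77 (SD, n = 5) in co-housed Xiap-/- mice, 17.1% ± 10.5 (n = 4) in the Xiap-/- group housed apart, 8.74% ± 1.47 (n = 5) in the co-housed wild-type group and 7.71% ± 3.69 (n = 6) in the wild-type group housed apart. Xiap transcript ends were still detected, at 6.25 to 6.48 in Xiap-/- mice housed apart against 6.56 to 7.08 in wild-type mice housed apart, and at 6.29 to 6.91 in co-housed Xiap-/- mice against 6.36 to 6.84 in co-housed wild-type mice. Whether these ends lie within the deleted part is not known, so they do not check the genotype labels. The RNA extraction text names liver and the other labels name crypts. Of 5 hepatocyte markers, Alb and Serpina1a lay near the floor of the values, at -2.70 and -2.72. The other 3, which the intestinal lining is also known to express, were at 9.96 (Apob), 9.21 (Cyp3a11) and 4.11 (Ttr). All 3 were higher in Xiap-/- than in wild-type mice housed apart, with a median difference of 0.42, and Ttr passed the test described below. The 6 Paneth cell markers averaged 11.60, 11.70, 11.54 and 11.56 in the groups in the order above. A low value does not show here that a cell type is absent. The goblet cell marker Muc2 lay at -0.83, while Tff3 and Zg16, also goblet cell markers, were at 12.10 and 12.80.

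Promoter sequence of some members is shown first, since the choice by symbol did not use it. Most members lacked each of the motifs searched below. The factors NRF1, GABP (of the ETS family), YY1 and ERR are known regulators of respiratory genes in mammals. Short core motifs of these factors were searched on both strands in the 250 bases before the start site, in RefSeq promoters of GRCm38.p6, where 66 members were found. The NRF1 core CATGCGC was present in 10 of 66 members (15.2%), in 3.7% of all 27025 genes of the promoter table and in 7.2% of its 7069 tested genes. For the ETS core CCGGAAG the shares were 18.2% of members, 7.8% of all genes and 17.8% of tested genes. The YY1 core ATGGCGG stood in 7.6% of members, 2.6% of all genes and 5.0% of tested genes, and the ERR core AAGGTCA in 7.6%, 4.7% and 3.6%. The 66 members include some too low to be tested. Such a match is a string of letters, and binding was not measured.

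Stretches before the start site that hold no annotated exon are given for Ndufa11 and Ndufb6 of complex I, for the abundant complex IV genes Cox6a1 and Cox5b, and for Cox7a1, the most variable member, which held none of the 4 motifs. Capitals mark matches to the NRF1 core or, near the beginning of the Ndufb6 stretch, to the ETS core, on either strand; in Ndufa11 and Cox6a1 a forward and a reverse match overlap.
Ndufa11, chr17:56717686-56717761, plus strand: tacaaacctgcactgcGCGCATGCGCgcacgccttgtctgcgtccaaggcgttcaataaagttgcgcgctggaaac
Cox6a1, chr5:115348982-115349129, minus strand: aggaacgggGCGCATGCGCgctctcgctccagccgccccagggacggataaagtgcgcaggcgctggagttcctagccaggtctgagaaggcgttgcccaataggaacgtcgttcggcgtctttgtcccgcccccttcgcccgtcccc
Cox5b, chr1:36691237-36691448, plus strand: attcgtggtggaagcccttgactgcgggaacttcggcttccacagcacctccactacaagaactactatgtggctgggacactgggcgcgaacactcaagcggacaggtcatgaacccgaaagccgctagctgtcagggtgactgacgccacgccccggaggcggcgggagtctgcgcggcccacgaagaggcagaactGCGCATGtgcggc
Ndufb6, chr4:40279422-40279671, minus strand: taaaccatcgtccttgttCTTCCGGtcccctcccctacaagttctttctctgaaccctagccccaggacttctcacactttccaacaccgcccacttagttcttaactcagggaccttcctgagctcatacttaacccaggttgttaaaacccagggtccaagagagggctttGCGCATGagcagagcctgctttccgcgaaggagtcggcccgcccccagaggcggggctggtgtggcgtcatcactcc
Cox7a1, chr7:30183921-30184143, plus strand: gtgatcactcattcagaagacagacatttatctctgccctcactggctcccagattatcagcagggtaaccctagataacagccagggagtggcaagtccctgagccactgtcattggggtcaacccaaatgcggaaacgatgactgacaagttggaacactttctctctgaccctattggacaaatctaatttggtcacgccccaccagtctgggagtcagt

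Position on the genome was also not used to choose the members. In GENCODE M21, on the same build, 78 of the 79 symbols were found as protein-coding genes (all but Atp5sl), spread over 19 chromosomes with 3 genes on X. A second gene that starts within 1000 bases upstream and runs the other way was present for 19 of 78 members (24.4%) and for 11.2% of 8719 tested protein-coding genes. The 78 include some members too low to be tested. Pairs of this kind were Sdhd with Timm8b, a mitochondrial import chaperone, Uqcrq with Gdf9, an oocyte growth factor, and Ndufa7 with Rps28, a ribosomal protein gene.

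Respiratory chain genes were among the abundant transcripts of the crypts. A gene was tested when its mean over the 20 libraries reached log2 of 10, and 74 of 79 members passed this minimum, as did 9521 of all 23020 genes. The median level of these 74 was 9.55, against 5.64 for all tested genes, and 56 of them (75.7%) were among the 500 most abundant genes, which hold 5.25% of all tested genes. Members of low level were dropped here by the minimum, so these values describe the 74 only. The median SD over the 20 libraries was 0.17 for the members and 0.16 for all tested genes. These sets differ in level, as given above, and were not matched for it.

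**Figure D1:**
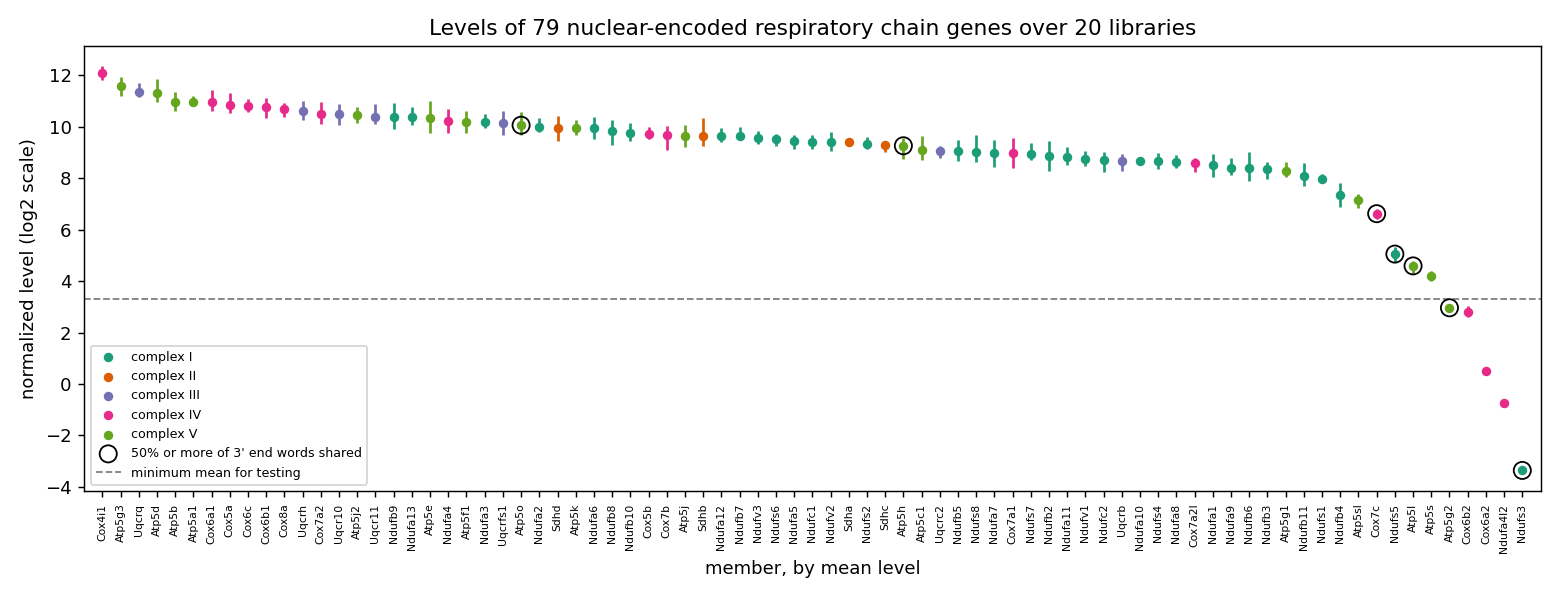
Mean level of each of the 79 members over 20 libraries (log2 scale; lines span the lowest to the highest library), coloured by complex and ordered by level. Cox4i1 leads at 12.07, 5 members lie under the dashed minimum, and 5 of the 7 circled genes, whose 3' ends share at least 50% of their words with other genes, are among the lowest.

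In complex I, the entry point for NADH, 34 of 35 members passed the minimum. Ndufb9, a supernumerary subunit of the membrane arm, led with a mean of 10.37 ± 0.23 (SD over 20 libraries). Its levels were at 10.25, 10.30, 10.51, 10.35 and 10.43 in co-housed Xiap-/- mice, at 10.42, 10.31, 10.93 and 10.48 in Xiap-/- mice housed apart, at 10.25, 10.17, 9.89, 10.33 and 10.26 in co-housed wild-type mice and between 10.002 and 10.68 (median 10.45) in the 6 wild-type mice housed apart. The 4 groups overlapped, and the lowest and highest values were those of co-housed wild-type replicate 3 and of Xiap-/- replicate 3 housed apart. Ndufa13, also known as GRIM-19 and linked to cell death, followed at 10.36 ± 0.17. It stood at 10.27, 10.23, 10.41, 10.36 and 10.36 in co-housed Xiap-/- mice, at 10.38, 10.26, 10.76 and 10.32 in Xiap-/- mice housed apart, at 10.16, 10.13, 10.07, 10.35 and 10.34 in co-housed wild-type mice and between 10.25 and 10.67 (median 10.48) in the 6 wild-type mice housed apart. Here co-housed wild-type mice had the lowest values and the groups again overlapped.

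Complex II, succinate dehydrogenase, was led by its membrane anchor Sdhd, with a mean of 9.97 ± 0.22. Values of Sdhd were at 9.94, 9.94, 9.94, 9.99 and 10.13 in co-housed Xiap-/- mice, at 9.94, 9.88, 10.33 and 10.07 in Xiap-/- mice housed apart, at 10.13, 9.92, 9.63, 9.97 and 9.92 in co-housed wild-type mice and between 9.45 and 10.42 (median 9.89) in the 6 wild-type mice housed apart, so wild-type mice housed apart spanned both the lowest and the highest library. The iron-sulfur subunit Sdhb had a mean of 9.65 ± 0.27, with levels at 9.51, 9.55, 9.64, 9.75 and 9.88 in co-housed Xiap-/- mice, at 9.72, 9.73, 10.32 and 9.83 in Xiap-/- mice housed apart, at 9.44, 9.48, 9.24, 9.68 and 9.73 in co-housed wild-type mice and between 9.23 and 10.04 (median 9.50) in the 6 wild-type mice housed apart. Its highest value was again that of Xiap-/- replicate 3 housed apart. Sdha, the flavoprotein that oxidises succinate, varied least of the 74 members, with 9.39 ± 0.07.

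In complex III the leading genes were Uqcrq, a small subunit of the membrane part, at 11.33 ± 0.12, and Uqcrh, the hinge protein near cytochrome c1, at 10.59 ± 0.18. Uqcrq stood at 11.28, 11.37, 11.36, 11.34 and 11.44 in co-housed Xiap-/- mice, at 11.37, 11.14, 11.40 and 11.22 in Xiap-/- mice housed apart, at 11.41, 11.29, 11.18, 11.22 and 11.31 in co-housed wild-type mice and between 11.22 and 11.71 (median 11.33) in the 6 wild-type mice housed apart. Values of Uqcrh were at 10.47, 10.58, 10.70, 10.55 and 10.57 in co-housed Xiap-/- mice, at 10.62, 10.44, 10.75 and 10.49 in Xiap-/- mice housed apart, at 10.70, 10.46, 10.28, 10.46 and 10.51 in co-housed wild-type mice and between 10.28 and 10.996 (median 10.75) in the 6 wild-type mice housed apart. Both genes had their highest library among wild-type mice housed apart, in replicate 3.

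Complex IV held the most abundant member, Cox4i1 (chromosome 8, 120668222 to 120674207), the common isoform of subunit 4, with a mean of 12.07 ± 0.16. Its levels were at 11.90, 12.05, 12.11, 11.99 and 12.05 in co-housed Xiap-/- mice, at 12.03, 11.90, 12.33 and 11.99 in Xiap-/- mice housed apart, at 12.03, 11.92, 11.81, 12.02 and 12.05 in co-housed wild-type mice and between 11.89 and 12.35 (median 12.25) in the 6 wild-type mice housed apart. In 3 wild-type mice housed apart it lay above the highest Xiap-/- value, and the groups overlapped. Cox6a1, the isoform used in liver and most other tissues, had 10.96 ± 0.19. The libraries stood at 10.85, 10.80, 10.97, 10.95 and 11.04 in co-housed Xiap-/- mice, at 11.01, 10.89, 11.42 and 10.99 in Xiap-/- mice housed apart, at 10.76, 10.80, 10.64, 10.94 and 11.01 in co-housed wild-type mice and between 10.62 and 11.21 (median 11.09) in the 6 wild-type mice housed apart, with the extremes in wild-type replicate 4 and Xiap-/- replicate 3, both housed apart.

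Complex V was led by Atp5g3, 1 of 3 genes for the same proton-carrying c subunit, at 11.58 ± 0.19, and by Atp5d, a subunit of the central stalk, at 11.31 ± 0.20. Atp5g3 stood at 11.46, 11.56, 11.60, 11.73 and 11.77 in co-housed Xiap-/- mice, at 11.72, 11.46, 11.95 and 11.66 in Xiap-/- mice housed apart, at 11.62, 11.37, 11.24, 11.51 and 11.57 in co-housed wild-type mice and between 11.21 and 11.84 (median 11.64) in the 6 wild-type mice housed apart. Values of Atp5d were at 11.16, 11.24, 11.34, 11.18 and 11.34 in co-housed Xiap-/- mice, at 11.27, 11.35, 11.87 and 11.41 in Xiap-/- mice housed apart, at 11.08, 11.12, 10.96, 11.31 and 11.38 in co-housed wild-type mice and between 11.12 and 11.56 (median 11.39) in the 6 wild-type mice housed apart. In both genes Xiap-/- replicate 3 housed apart was the highest of the 20 libraries. Atp5sl and Atp5s carry ATP synthase names but encode accessory proteins and not subunits, and they had means of 7.14 and 4.20.

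Isoforms known from other tissues were unevenly present. Cox7a1, known as the heart and muscle isoform of subunit 7a, had a mean of 8.98, against 10.48 for Cox7a2, the common isoform, and 8.59 for Cox7a2l, a relative involved in joining complexes III and IV. Muscle markers were low in the same libraries, where Myh11, Des and Ckm lay at -3.58, -2.47 and -2.09, and of the 7 muscle markers only Acta1 passed the minimum, at 3.61. Whether muscle tissue contributed to the level of Cox7a1 was not tested. Cox6a2, the other muscle isoform, lay at 0.52 against 10.96 for Cox6a1. Cox6b2, known from testis, lay at 2.80 against 10.77 for Cox6b1. Ndufa4l2, which is induced by hypoxia, lay at -0.72 against 10.21 for Ndufa4, a subunit first assigned to complex I and now to complex IV. Of the c-ring genes, Atp5g1 had 8.27 and Atp5g2 2.96, both below Atp5g3. Cox7b and Cox8a had 9.66 and 10.69. Cox4i2, Cox7b2, Cox8b and Cox8c were not analysed here.

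Some low levels belong to genes whose transcript ends resemble those of other genes. The last 300 bases of each coding transcript were split into words of 30 bases and looked up in the transcripts of all other genes. At least 50% of the words were shared in 7 of 78 members (9.0%) and in 2.2% of tested protein-coding genes, and any word in 51.3% against 23.5%. The 78 include members below the minimum mean, Ndufs3 and Atp5g2 among them, while the background holds tested genes only. The sets are thus not alike. The 7 were Atp5l (72.3%), Atp5h (70.0%), Ndufs3 (67.2%), Cox7c (66.9%), Atp5g2 (58.3%), Atp5o (55.2%) and Ndufs5 (54.9%). Reads from such ends may be assigned to either gene or to none, so the levels of these members are uncertain. How the authors treated such reads is not given in the sources used here.

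The lowest of these 7, and of all members, was Ndufs3 (chromosome 2, 90894634 to 90904827). It encodes a core subunit that complex I needs, yet at -3.36 it lay at the floor in every library, between -3.37 and -3.31, while its processed pseudogene Gm12251 had a mean of 5.46. The 6 other core subunits of complex I all passed the minimum. Atp5g2 at 2.96 lay below its pseudogene Gm10175 at 4.17, and Ndufs5 at 5.05 below BC002163 at 5.76. Likewise Atp5h at 9.26 lay below Gm10250 at 9.84. Cox7c at 6.62 stood above its pseudogenes Gm12338 and Gm10012, at 5.75 and 3.00, and Atp5o at 10.06 above Gm5436 at 7.65. Atp5o shared 26.9% of its words with Gm5436 and 28.3% with Donson, a protein-coding gene at 3.47. The annotated 3' end of Atp5o overlaps an exon of Donson on the same strand. Atp5l at 4.59 shares words with pseudogenes that lay between -1.81 and 2.78. Of the dropped pseudogene symbols, Uqcrh-ps2 had 7.23, Atp5k-ps2 6.34 and Uqcrh-ps1 4.49.

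The members moved together between libraries, within every group. Each library was described by how many of the 74 tested members lay above their own mean over the 20 libraries. In co-housed Xiap-/- mice the counts were 4, 20, 54, 47 and 67 in replicates 1 to 5. In Xiap-/- mice housed apart they were 59, 33, 71 and 51. Co-housed wild-type mice had 26, 5, 3, 14 and 38, and wild-type mice housed apart had 33, 29, 70, 3, 69 and 38. Over all tested genes the same share stayed between 48.5% and 51.0% in each of the 20 libraries. Wild-type mice housed apart, with the same genotype and housing, thus ran from 3 to 70 members above their means.

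**Figure D2:**
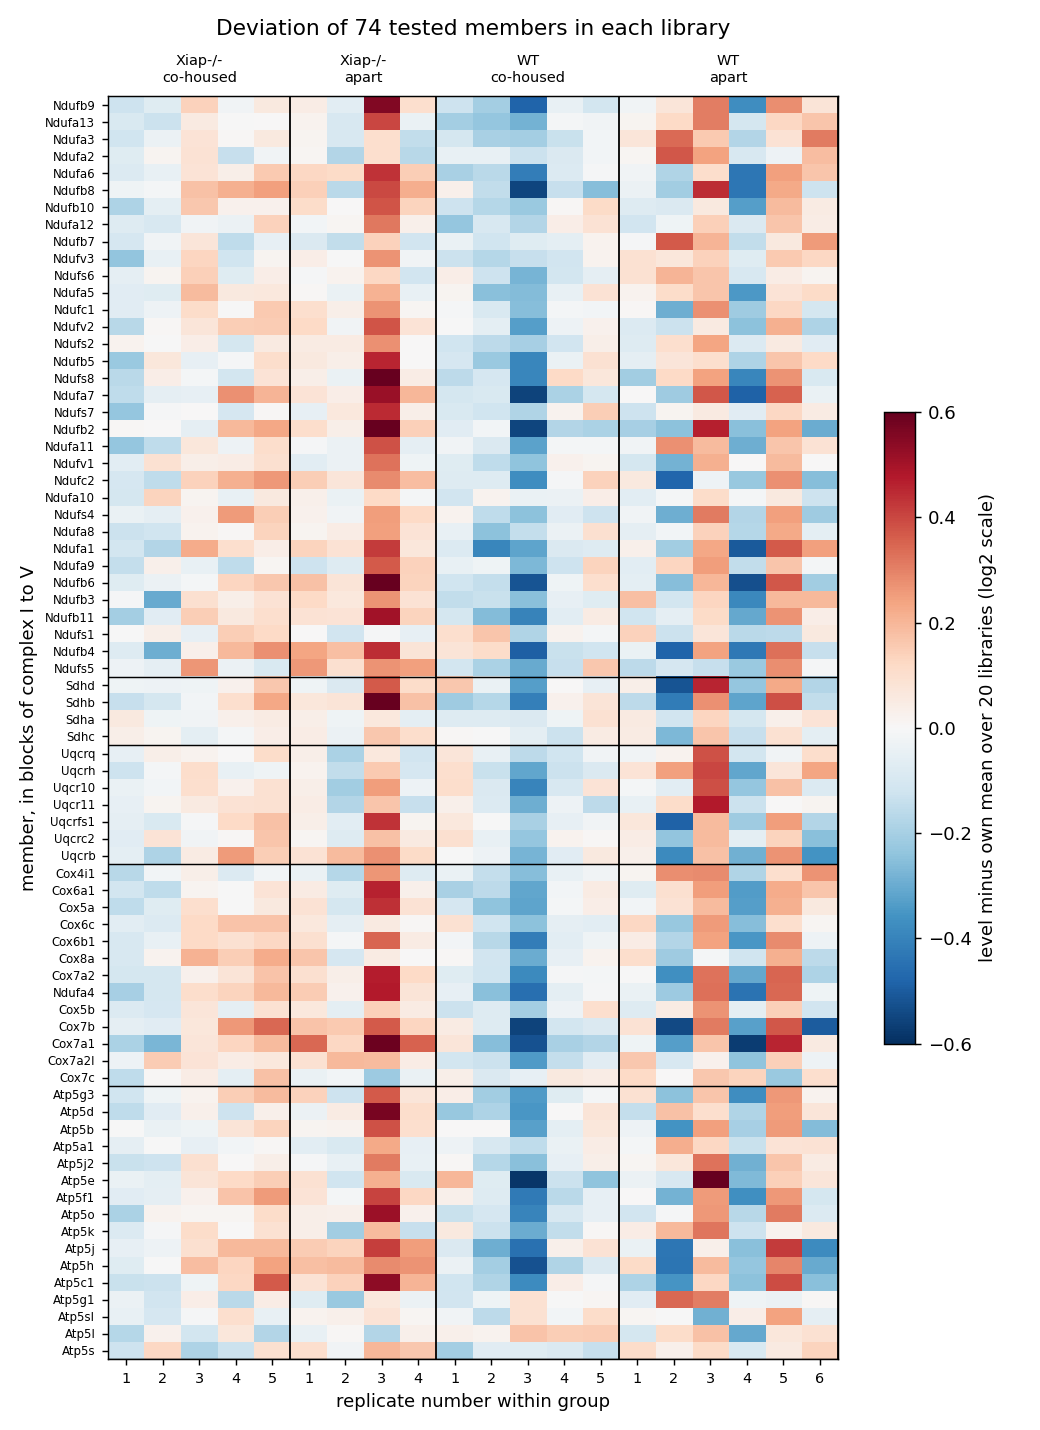
Deviation of each of the 74 tested members from its own mean (colour, log2 scale) in the 20 libraries, in columns by group and replicate, with members in blocks of complex I to V. Whole columns share a colour: 71 of 74 members are above their mean in Xiap-/- replicate 3 housed apart, and 3 of 74 in co-housed wild-type replicate 3 and in wild-type replicate 4 housed apart.

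The mean level of the 74 members was 9.38 ± 0.08 (SD, n = 5) in co-housed Xiap-/- mice, 9.47 ± 0.14 (n = 4) in the Xiap-/- group housed apart, 9.26 ± 0.11 (n = 5) in the co-housed wild-type group and 9.37 ± 0.17 (n = 6) in the wild-type group housed apart. The ranges over mice overlapped for every pair of groups. In bulk samples, fewer cells rich in mitochondria and less RNA per cell cannot be told apart. By complex, the group means of complex I ran at 8.999, 9.101, 8.881 and 9.001 in the same order of groups, those of complex III at 10.12, 10.13, 10.03 and 10.11, and those of complex IV at 10.05, 10.14, 9.91 and 10.04. Co-housed wild-type mice had the lowest mean in each of the 5 complexes.

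**Figure D3:**
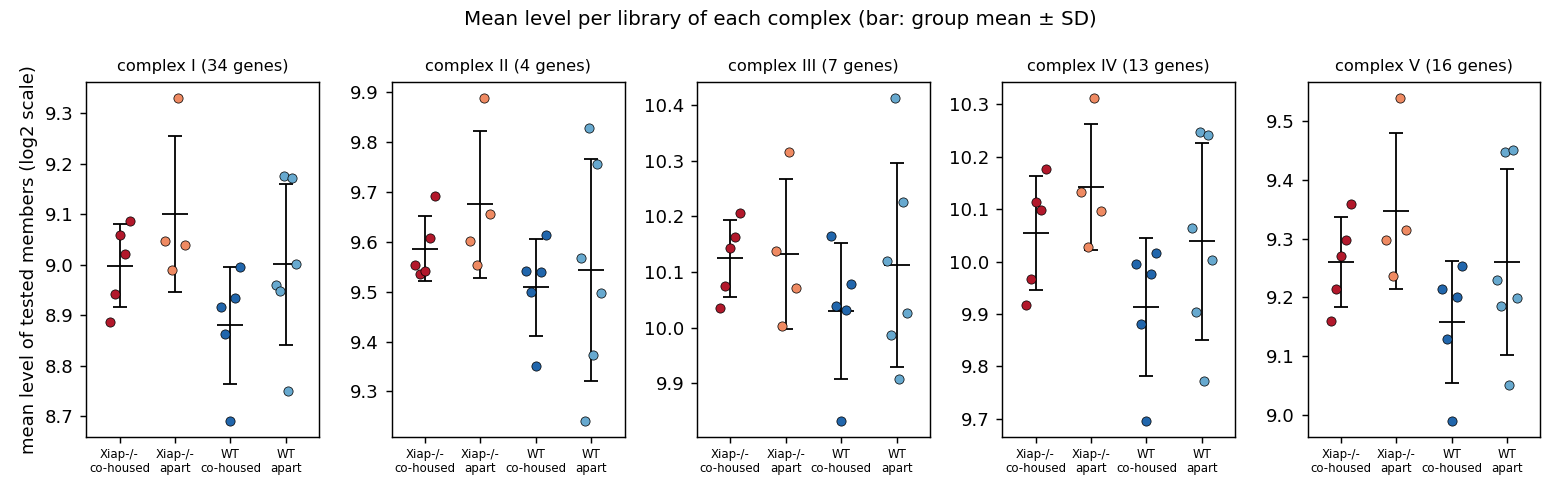
Mean level of the tested members of each complex in every library (points; log2 scale), with the group mean and SD as bars. Groups of the same housing or the same genotype overlap in all 5 complexes, and the ranges of wild-type mice housed apart, such as 8.75 to 9.17 in complex I, are as wide as the distances between groups.

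No member passed the test in any comparison. All 5 comparisons came from 1 limma model of the group means, and genes whose two-sided p, adjusted over the 9521 genes by Benjamini and Hochberg's method, lay under 0.05 were called. Mice were taken as independent, although cages are not named. The median half-width of the members' unadjusted 95% intervals was 0.22 for genotype housed apart and 0.21 co-housed. It was 0.20 for housing in wild-type mice and 0.22 in Xiap-/- mice. A call also had to pass the adjustment over 9521 genes, so differences larger than these half-widths could also go uncalled. For genotype housed apart, the largest member difference, 0.39, was not called. No member had a fitted difference of 0.5 or more.

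**Figure D4:**
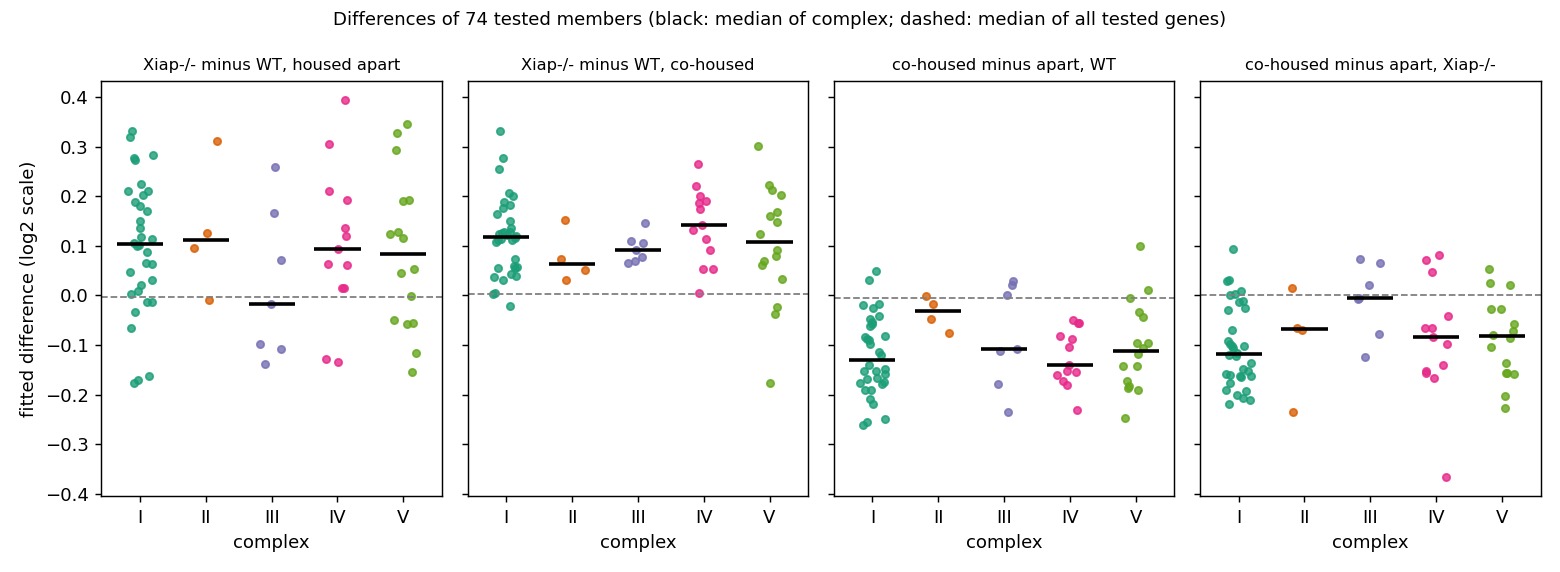
Fitted differences of the 74 tested members (points; log2 scale) in 4 comparisons, by complex, with the median of each complex (black) and of all tested genes (dashed). Most points lie above 0 for genotype (medians 0.10 housed apart and 0.11 co-housed) and below 0 for housing (-0.11 in wild-type mice, -0.09 in Xiap-/- mice); none passed the test.

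Among mice housed apart, where each genotype was kept without the other, 0 of 74 members were called by limma, against 0.452% of all tested genes. At an unadjusted p under 0.05, 10 members (13.5%) were higher in Xiap-/- mice, against 7.82% of all tested genes, and 0 were lower, against 7.99%. The smallest adjusted p of a member was 0.171. Groups without overlap were found for 0 members, against 0.819% of all genes higher and 1.05% lower. The median difference was 0.10, with 54 of 74 members above 0 (73.0%), beside -0.003 and 49.1% for all tested genes.

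The 10 genes were Ndufs5, Ndufb4, Ndufb6 and Ndufc2 of complex I, Sdhb of complex II, Uqcrb of complex III, Cox7a1 of complex IV, and Atp5j, Atp5h and Atp5c1 of complex V. Cox7a1 (chromosome 7, 30184144 to 30186078) had the largest difference, 0.39 ± 0.15 (SE; 95% interval 0.09 to 0.70; limma adjusted p = 0.194). It stood at 9.32, 9.10, 9.57 and 9.33 in Xiap-/- mice housed apart and between 8.41 and 9.43 (median 8.99) in the 6 wild-type mice housed apart. Only Xiap-/- replicate 3 exceeded the highest wild-type mouse, and the other Xiap-/- values lay within the wild-type range. Atp5j (chromosome 16, 84827866 to 84835625), coupling factor 6 of the peripheral stalk, was at 9.81, 9.78, 10.07 and 9.90 in Xiap-/- mice housed apart and between 9.22 and 10.07 (median 9.51) in the 6 wild-type mice housed apart. Its difference was 0.35 ± 0.13 (SE; 95% interval 0.09 to 0.60; limma adjusted p = 0.181). A single wild-type mouse, replicate 5, was as high as the highest Xiap-/- mouse.

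Ndufs5, a supernumerary subunit of complex I, had the smallest p, with values at 5.31, 5.14, 5.32 and 5.30 in Xiap-/- mice housed apart and between 4.83 and 5.33 (median 4.93) in the 6 wild-type mice housed apart. The difference was 0.28 ± 0.10 (SE; 95% interval 0.07 to 0.48; limma adjusted p = 0.171), and its transcript end is shared with BC002163, as given above. Atp5c1, the gamma subunit that turns inside the catalytic head, differed by 0.33 ± 0.13 (SE; 95% interval 0.07 to 0.59; limma adjusted p = 0.203), with levels at 9.17, 9.23, 9.62 and 9.29 in Xiap-/- mice housed apart and between 8.73 and 9.48 (median 8.87) in the 6 wild-type mice housed apart. Atp5h, subunit d of the peripheral stalk, differed by 0.29 ± 0.12 (SE; 95% interval 0.05 to 0.54; limma adjusted p = 0.229) and stood at 9.44, 9.45, 9.54 and 9.53 in Xiap-/- mice housed apart and between 8.82 and 9.55 (median 9.20) in the 6 wild-type mice housed apart. In all 5 of these genes replicate 5 was the highest of the wild-type mice housed apart.

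That library decided the count. Without wild-type replicate 5 housed apart, 7 of 74 members (9.46%) passed, against 7.32% of all tested genes: Atp5c1, Atp5h, Atp5j, Cox7a1, Ndufb6, Ndufc2 and Ndufs5, with differences of 0.34 to 0.49 and limma adjusted p of 0.0133 to 0.0453. The median was 0.13 without it. It was 0.02, with 42 of 74 members above 0, without Xiap-/- replicate 3, and 0.05 without wild-type replicate 4. Quantile normalization gave a median of 0.07, and weights for library quality gave 0.04.

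By complex, the median difference in mice housed apart was 0.10 for complex I, 0.11 for complex II, -0.02 for complex III, 0.09 for complex IV and 0.08 for complex V. Complex III, with 3 of 7 members above 0, thus had a median of the other sign. The 6 tested core subunits of complex I had a median of 0.09 and the 28 supernumerary ones 0.10.

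In co-housed mice, 0 of 74 members were called by limma, against 0.0315% of all tested genes. At an unadjusted p under 0.05, 4 members (5.41%) were higher in Xiap-/- mice, against 5.43%, which is the background share, and 0 were lower, against 6.59%. The median was 0.11, with 70 of 74 members above 0 (94.6%), beside 51.1% of all tested genes. After quantile normalization the median was 0.05 and 59 of 74 (79.7%) were above 0. It was 0.07 without co-housed wild-type replicate 3. All members of complexes II, III and IV lay above 0, as did 33 of 34 in complex I and 13 of 16 in complex V.

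The 5 members of smallest p were Atp5h, Cox7a2l, Ndufb8, Ndufb2 and Atp5l. Cox7a2l (chromosome 17, 83501918 to 83517330), of which C57BL/6 mice are known to carry a shortened form, was the 1 member (1.35%) without overlap, against 1.33% of all tested genes higher and 1.75% lower; no member lay wholly lower. It stood at 8.56, 8.74, 8.67, 8.63 and 8.65 in co-housed Xiap-/- mice and at 8.48, 8.46, 8.25, 8.44 and 8.52 in co-housed wild-type mice. The difference was 0.22 ± 0.09 (SE; 95% interval 0.05 to 0.40; limma adjusted p = 0.301). Ndufb8, a subunit of the membrane arm often used to follow complex I assembly, had the largest difference, 0.33 ± 0.13 (SE; 95% interval 0.07 to 0.60; limma adjusted p = 0.304). Its levels were at 9.81, 9.82, 10.01, 10.05 and 10.08 in co-housed Xiap-/- mice and at 9.86, 9.69, 9.29, 9.70 and 9.58 in co-housed wild-type mice, and only co-housed wild-type replicate 1 reached into the Xiap-/- range.

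Atp5h differed by 0.30 ± 0.12 (SE; 95% interval 0.06 to 0.54; limma adjusted p = 0.298) and was at 9.19, 9.26, 9.44, 9.39 and 9.50 in co-housed Xiap-/- mice and at 9.23, 9.05, 8.74, 9.08 and 9.17 in co-housed wild-type mice. Its pseudogene Gm10250 averaged 9.95 ± 0.12 (SD, n = 5) in co-housed Xiap-/- mice and 9.63 ± 0.21 (n = 5) in co-housed wild-type mice, so gene and copy differed in the same direction. Ndufb2, of the membrane arm, differed by 0.28 ± 0.13 (SE; 95% interval 0.01 to 0.55; limma adjusted p = 0.403). Atp5l, subunit g, had the opposite sign, -0.18 ± 0.09 (SE; 95% interval -0.36 to 0.00; limma adjusted p = 0.423). It stood at 4.42, 4.62, 4.48, 4.66 and 4.41 in co-housed Xiap-/- mice and at 4.62, 4.61, 4.76, 4.74 and 4.74 in co-housed wild-type mice, and the ranges overlapped.

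Across both housings, whose genotype comparisons share no mouse, 52 of 74 members (70.3%) were above 0 in both and 2 below 0 in both, beside 31.3% and 31.2% of all tested genes. Members vary together between libraries, so they are not 74 separate observations of a direction.

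In wild-type mice, co-housing was followed by no call among the 74 members or among all genes (0% of 9521 by limma, with the smallest adjusted p of a member at 0.363). At an unadjusted p under 0.05, 8 members (10.8%) were lower in co-housed mice, against 4.87% of all tested genes, and 0 higher, against 5.3%. Groups without overlap were found for 0 members, against 0.305% of all genes higher and 0.221% lower. The median difference was -0.11, and 68 of 74 members (91.9%) lay below 0. This depended on the scaling: after quantile normalization the median was -0.01 and 43 of 74 (58.1%) lay below 0. Without co-housed replicate 3 or without replicate 3 housed apart the median was -0.07.

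Of the 8 genes, Ndufa3, Ndufa13, Ndufb9, Ndufs6 and Ndufv3 belong to complex I, and the others were Uqcrh, Cox4i1 and Atp5s. Ndufa3 (chromosome 7, 3617373 to 3620327), a supernumerary subunit, was at 10.06, 9.98, 9.96, 10.04 and 10.15 in co-housed wild-type mice and between 9.99 and 10.51 (median 10.29) in the 6 wild-type mice housed apart. It differed by -0.26 ± 0.09 (SE; 95% interval -0.45 to -0.08; limma adjusted p = 0.363). All 5 co-housed mice lay below the median of the mice housed apart, and only replicate 4 housed apart fell within the co-housed range. Its 3' end overlaps an exon of Tfpt on the other strand, and whether the counting used strand is not given in the sources used here. Ndufa13, with the values given above, differed by -0.25 ± 0.10 (SE; 95% interval -0.45 to -0.06; limma adjusted p = 0.389).

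Ndufv3, a small flavoprotein subunit of the NADH-binding arm, stood at 9.45, 9.40, 9.43, 9.46 and 9.59 in co-housed wild-type mice and between 9.50 and 9.73 (median 9.68) in the 6 wild-type mice housed apart. The difference was -0.19 ± 0.08 (SE; 95% interval -0.36 to -0.02; limma adjusted p = 0.465). Uqcrh differed by -0.23 ± 0.10 (SE; 95% interval -0.45 to -0.02; limma adjusted p = 0.466) and Atp5s by -0.17 ± 0.08 (SE; 95% interval -0.33 to -0.02; limma adjusted p = 0.466). Cox4i1, the most abundant member, averaged 11.97 ± 0.10 (SD, n = 5) in co-housed and 12.20 ± 0.19 (n = 6) in wild-type mice housed apart. Replicate 4 housed apart was the lowest of its group for Ndufa3, Ndufa13, Ndufv3, Uqcrh and Cox4i1.

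In Xiap-/- mice, 0 of 74 members were called for co-housing by limma, against 0.147% of all tested genes. At an unadjusted p under 0.05, 1 member (1.35%), Cox7a1, was lower in co-housed mice, against 5.85%, and 0 were higher, against 5.41%. Groups did not separate for any member, against 2.65% of all genes higher and 2.98% lower. The median was -0.09, with 58 of 74 below 0 (78.4%), and after quantile normalization -0.04, with 45 of 74 (60.8%). Without Xiap-/- replicate 3 housed apart the median was -0.03, without co-housed replicate 1 it was -0.06, and with quality weights -0.05.

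Cox7a1 differed by -0.37 ± 0.15 (SE; 95% interval -0.68 to -0.05; limma adjusted p = 0.372) and stood at 8.79, 8.70, 9.05, 9.11 and 9.17 in co-housed Xiap-/- mice and at 9.32, 9.10, 9.57 and 9.33 in Xiap-/- mice housed apart. Only the lowest mouse housed apart, replicate 2, fell into the co-housed range. Ndufs5 differed by -0.21 ± 0.10 (SE; 95% interval -0.42 to 0.00; limma adjusted p = 0.447), with values at 5.02, 4.995, 5.32, 5.01 and 4.96 in co-housed Xiap-/- mice and at 5.31, 5.14, 5.32 and 5.30 in Xiap-/- mice housed apart. Co-housed replicate 3 stood at the level of the mice housed apart. Ndufs7, a core subunit with an iron-sulfur cluster, differed by -0.19 ± 0.10 (SE; 95% interval -0.39 to 0.01; limma adjusted p = 0.482), Atp5d by -0.23 ± 0.12 (SE; 95% interval -0.47 to 0.02; limma adjusted p = 0.488) and Atp5s by -0.16 ± 0.08 (SE; 95% interval -0.33 to 0.02; limma adjusted p = 0.501). For Atp5d, Xiap-/- replicate 3 housed apart was the only mouse far above the co-housed range.

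Across both genotypes, whose housing comparisons share no mouse, 53 of 74 members (71.6%) lay below 0 in both and 1 above 0 in both, beside 29.8% and 28.0% of all tested genes. These are the same 20 libraries as in the comparison of genotypes, so the pair of patterns is not independent.

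The difference between the genotype differences (co-housed minus housed apart) was called for 0 members by limma, against 0.0105% of all tested genes. At an unadjusted p under 0.05, 1 member, Ndufa3, was higher, against 3.84%, and 0 lower, against 3.2%. For Ndufa3 it was 0.29 ± 0.14 (SE; 95% interval 0.01 to 0.57; limma adjusted p = 0.697), and the smallest adjusted p of any member was this one. Atp5k, subunit e of the membrane part, had 0.24 ± 0.14 (SE; 95% interval -0.05 to 0.53; limma adjusted p = 0.764). Uqcr11, a small subunit of complex III, had 0.24 ± 0.15 (SE; 95% interval -0.06 to 0.54; limma adjusted p = 0.777). Ndufa2 had 0.21 ± 0.13 and Ndufs6 0.18 ± 0.12 (SE). The median over the 74 was 0.02, with 44 above 0, and its sign turned under quantile normalization (-0.01) and without wild-type replicate 3 or 5 housed apart, co-housed wild-type replicate 3, Xiap-/- replicate 2 housed apart or co-housed Xiap-/- replicate 5.

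The mitochondrially encoded subunits, which join the same complexes, had medians on the other side of 0. Of 13 such genes 11 were analysed and 8 passed the minimum. These 8 genes share the mitochondrial DNA, so they are not 8 separate observations of a direction. Their medians under other scalings were not taken. Their median genotype difference was -0.28 in mice housed apart and -0.19 in co-housed mice, where the nuclear members had 0.10 and 0.11. Their median housing difference was 0.28 in wild-type and 0.42 in Xiap-/- mice, where the nuclear members had -0.11 and -0.09. None was called, and 3, 2, 3 and 5 of 8 had an unadjusted p under 0.05, where 15.8%, 12%, 10.2% and 11.3% of all tested genes had one in either direction. Their mean level was 11.34 ± 0.23 (SD, n = 5) in co-housed Xiap-/- mice, 10.94 ± 0.17 (n = 4) in the Xiap-/- group housed apart, 11.49 ± 0.22 (n = 5) in the co-housed wild-type group and 11.22 ± 0.33 (n = 6) in the wild-type group housed apart. The ranges over mice overlapped within each housing and within each genotype. The lowest library was wild-type replicate 2 housed apart, at 10.75, against 10.78 to 11.17 in Xiap-/- mice housed apart. mt-Cytb and mt-Nd1 led at 14.97 and 14.14, while mt-Co2 and mt-Atp6 lay near the floor at -2.80 and -3.35.

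**Figure D5:**
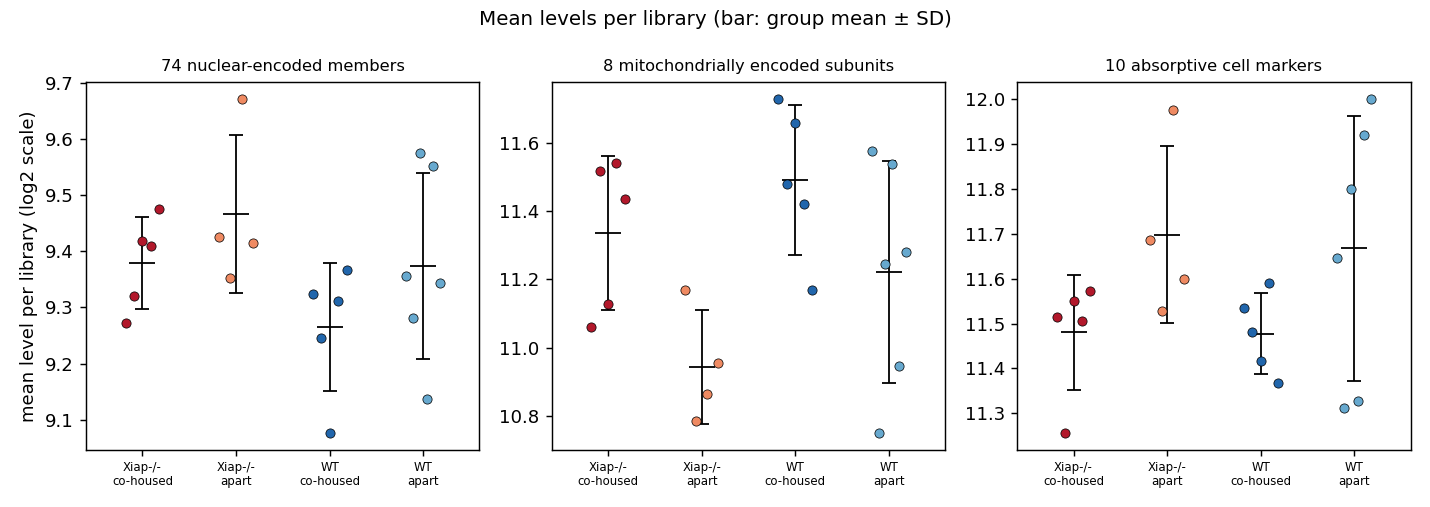
Mean level per library (points; log2 scale, separate axes) of the 74 nuclear-encoded members, the 8 tested mitochondrially encoded subunits and 10 absorptive cell markers, with the group mean and SD as bars. Xiap-/- mice housed apart have the highest group mean of nuclear members (9.47) and the lowest of mitochondrially encoded ones (10.94).

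Genes around the chain gave 1 call. Of 41 tested assembly factors, Sco2, which delivers copper to complex IV, rose in Xiap-/- mice housed apart by 1.12 ± 0.19 (SE; limma adjusted p = 0.0164), and the list's medians were 0.07, 0.05, 0.01 and -0.02 in the 4 comparisons in the order above. None of the 13 tested complex IV subunits passed in that comparison. Of 14 electron carriers and coupled enzymes, 16 citric acid cycle genes and 13 tested regulators of respiratory genes, none was called in any comparison. Cyc1, the cytochrome of complex III, had a mean of 9.86, and Cycs, cytochrome c, 6.64. Ndufab1, a complex I subunit whose symbol the choice did not match, had 8.12.

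Markers of absorptive cells, which sit at the upper crypt and on the villus and are rich in mitochondria, are set beside the members here. All 10 were tested and none was called. Their median differences were 0.09, 0.03, -0.23 and -0.16 for the 2 genotype and the 2 housing comparisons in the same order, with 7, 6, 2 and 0 of 10 above 0. Their mean level was 11.48 ± 0.13 (SD, n = 5) in co-housed Xiap-/- mice, 11.70 ± 0.20 (n = 4) in the Xiap-/- group housed apart, 11.48 ± 0.09 (n = 5) in the co-housed wild-type group and 11.67 ± 0.29 (n = 6) in the wild-type group housed apart. In the same order of comparisons, the medians of 7 T cell markers were -0.002, 0.28, -0.31 and -0.05, and those of 5 tested goblet cell markers -0.03, 0.14, -0.20 and -0.10. The 5 stem cell markers had medians of 0.14, 0.11, 0.08 and 0.06, of the members' sign for genotype and of the opposite sign for housing. Those of the 6 markers of dividing cells were -0.03, -0.03, 0.09 and 0.11, and those of the 6 Paneth cell markers 0.03, 0.07, -0.02 and -0.02. None of these markers was called. The part of these cell types in the members' differences was not tested. The depth proxy had its highest group mean in Xiap-/- mice housed apart, at 10.1%, 32.1%, 9.55% and 16.6% in replicates 1 to 4. Wild-type replicate 5 housed apart had 14.9%. With the proxy as a covariate the members' medians were 0.11, 0.11, -0.10 and -0.08. The calls over all genes then fell from 43 to 3 for genotype housed apart. For housing in Xiap-/- mice they fell from 14 to 1. Whether the calls of Sco2 and Ttr held with this covariate was not examined.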

How the data were processed

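The deposited values are normalized levels on a log2 scale for 23020 genes in 20 libraries, made by the authors. DESeq2 1.18.1 and build GRCm38.p6 are named, without their roles, per the submitters' processing notes. The transformation, the aligner and the handling of reads that match several genes are not given in the sources used here, and counts were not used here, so no counting interval is given. The members and the gene lists were chosen with earlier results of these data known. The values were analysed without a pseudocount in R 4.3.3 with limma 3.58.1. Genes with a mean of at least log2 of 10 were tested in a model of 4 group means with 16 residual degrees of freedom, with trended and robust empirical Bayes moderation. p-values were adjusted over 9521 genes by the Benjamini-Hochberg method. They set each difference against the spread between libraries, taken as separate mice. That spread was estimated over all 4 groups and moderated over genes. The depth proxy is the share of 1854 genes with a mean under -3 that stand over 0.015 above their own median. No library repeated another. Members named are the 5 of smallest p in each comparison, the 2 of highest mean in each complex, known isoform sets and the members below the minimum; the 10 and 8 genes of unadjusted p under 0.05, the most variable members, the promoters printed, genes with shared 3' ends and context genes were picked after their values were seen. The alternatives tried were other scalings, minimum means, moderation, library weights, groups in the fit, the depth proxy as a covariate, a replicate block and leaving out libraries.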

Additional observations from a re-analysis of the deposited data

Results flagged for a closer look

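In groups of 4 to 6 mice, the highest or lowest library was set against the others by Dixon's test at the 95% level. Of 340 series screened (the 79 members, their mean and the means of 5 complexes, each in 4 groups), 25 had a library far from the rest, and chance alone flags about 1 in 20. Members share libraries, so these are not separate events.

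Xiap-/- replicate 3 housed apart accounted for 11 of them, and was the high library in all but Cox7c. In complex I, Ndufs8, a core subunit with iron-sulfur clusters, stood at 9.66 there, against 8.98 to 9.07 in the other mice of the group, and Ndufv1, the subunit that binds NADH, at 9.07, against 8.68 to 8.72. The supernumerary subunits were at 10.39 (Ndufa6, others 10.07 to 10.10), 9.21 (Ndufa11, others 8.78 to 8.83), 9.96 (Ndufa12, others 9.63 to 9.67), 9.50 (Ndufb5, others 9.04 to 9.10) and 8.59 (Ndufb11, others 8.16 to 8.21). In complex V, Atp5o stood at 10.57, against 10.08 to 10.09, Atp5a1 at 11.20, against 10.89 to 10.93, and Atp5j2 at 10.75, against 10.40 to 10.43. Cox7c was low there, at 6.40 against 6.58 to 6.60. In this library 71 of 74 members lay above their own mean.

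Co-housed wild-type replicate 3 accounted for 6, all low, and 3 of 74 members lay above their own mean in it. It stood at 8.25 for Cox7a2l, against 8.44 to 8.52 in the other mice of its group, and at 9.10 for Cox7b, against 9.55 to 9.71. Atp5o was at 9.66, against 9.92 to 10.01, and Ndufv2 at 9.07, against 9.34 to 9.43. Ndufa7 was at 8.43, against 8.79 to 8.89, and Ndufa11 at 8.51, against 8.75 to 8.82.

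The others were spread over 7 libraries. Ndufs5 stood at 5.32 in co-housed Xiap-/- replicate 3, against 4.96 to 5.02, and at 5.14 in Xiap-/- replicate 2 housed apart, against 5.30 to 5.32. Ndufb3 was low in co-housed Xiap-/- replicate 2, at 8.06 against 8.35 to 8.45, and Ndufa5 in wild-type replicate 4 housed apart, at 9.12 against 9.48 to 9.63. The remaining 4 concern members below the minimum mean. Cox6b2 stood at 2.83 in Xiap-/- replicate 4 housed apart, against 2.75 to 2.76, and Ndufa4l2 at -0.70 in co-housed Xiap-/- replicate 5, against -0.76 to -0.75. Ndufs3, at the floor, stood at -3.32 in co-housed Xiap-/- replicate 3, against -3.37 to -3.36, and at -3.31 in co-housed wild-type replicate 4, against -3.37 to -3.36.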

How the results depend on the processing

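No member was called by limma in any comparison under the alternatives run, apart from 7 for genotype housed apart without wild-type replicate 5; over the libraries left out in turn that count ran from 0 to 7. With a replicate block, 0 members were called in each comparison, and the medians were 0.13, 0.11, -0.12, -0.13 and -0.004 for genotype housed apart, genotype co-housed, housing in wild-type mice, housing in Xiap-/- mice and the interaction. The block moved the calls over all genes to 350, 4, 0, 189 and 10, from 43, 3, 0, 14 and 1. Whether libraries of the same number belong together is not known, and 4 or 5 pairs cannot decide it. Their deviations correlated by 0.07 to 0.25 in 4 pairs of mice housed apart, against a median of -0.02 for other pairs. In 5 co-housed pairs they correlated by -0.13 to 0.13 (other pairs -0.01). Between housings the ranges were -0.42 to 0.17 in wild-type mice and -0.06 to 0.22 in Xiap-/- mice (other pairs 0.002 and -0.03). The medians of the first 4 comparisons kept their sign under every alternative, between 0.02 and 0.13, 0.05 and 0.14, -0.16 and -0.01, and -0.13 and -0.03, while that of the interaction ran from -0.03 to 0.09. Without the libraries of highest and lowest depth proxy, a choice made after seeing the data, the medians were 0.13, 0.11, -0.12, -0.13 and -0.01. Calls over all genes were 385, 159, 5, 224 and 4 under quality weights in the same order of comparisons. With 1 library left out they ran from 9 to 697, 1 to 12, 0 to 66 and 2 to 64 in the first 4, where 697 and 64 came without wild-type replicate 5 housed apart and 12 and 66 without wild-type replicate 4 housed apart. They were 12, 142, 0 and 169 with only the groups compared in the fit. With the depth proxy as a covariate they were 3, 3, 0, 1 and 1 in the same order, the interaction last. The cause of these shifts was not tested, and the unknown depth limits what the low members can show.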
